A study of Mus musculus with 12 samples.

Results

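The 53 genes described here drive or restrain the cell cycle. They were chosen by gene name and fall into 4 roles. There were 28 mitotic genes, 14 S-phase (replication) genes, 5 D- and E-type cyclins and 6 inhibitors of cyclin-dependent kinases (CDKs). Each name was found on 1 of the 29428 gene rows of the expression table, and all 53 had at least 0.5 TPM in at least 3 libraries, as 16127 genes did. TPM is a level per length of transcript, scaled to the library's total. STHdhQ7 and STHdhQ111 cells are immortalized mouse striatal lines whose huntingtin gene encodes 7 or 111 glutamine repeats, and both were cultured at 33 °C. There were 3 libraries in each of 4 groups, namely nontreated STHdhQ7 cells (Q7-C), nontreated STHdhQ111 cells (Q111-C), and the same lines after 24 h with 100 ng/mL murine IFNγ and 5 μg/mL LPS (Q7-T and Q111-T). The comparisons ask whether the lines differ before and after this neuroinflammatory challenge and whether each line responds to it. Each genotype is represented by 1 cell line, so that genotype and line cannot be told apart. The study's text calls the libraries of a group biological replicates, but neither it nor the labels say whether they came from separate cultures, and p-values measure the spread between these libraries.

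In the cell cycle, D-type cyclins with CDK4 and CDK6 start the phosphorylation of RB proteins, which releases E2F factors. E2F factors then activate E-type cyclins and the genes that load the MCM helicase, make nucleotides and copy DNA. Later the MYBL2 and FOXM1 factors drive the mitotic genes. CDK inhibitors hold these steps back, and CDKN1A (p21) is the best known target of p53. As background, STHdh lines were immortalized with a temperature-sensitive large T antigen, a viral protein that binds p53 and RB proteins and is active at the temperature of this culture. Its level was not analysed here.

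Estimated counts summed to between 57505990 and 96417834 per library. Library totals limit counting error only, and the reads carry no molecular identifiers. IFNγ/LPS raised the interferon- and LPS-induced genes Irf1, Gbp2, Cxcl10 and Nos2 in both lines, with log2 fold changes between 4.15 and 7.0 in STHdhQ7 cells and between 3.61 and 8.9 in STHdhQ111 cells. The cells are labelled as a striatal neuronal line. Of 7 striatal projection neuron markers with a row in the expression table, 3 (Foxp1, Penk and Ppp1r1b) reached 0.5 TPM in any library. Bcl11b, Gad1, Gad2 and Adora2a did not, and the markers Drd1, Drd2 and Tac1 had no row. Of 8 mesenchymal markers, 7 reached a mean of 10 TPM in some group, and their summed level was 4351 to 5150 TPM in Q7-C, 3342 to 3883 in Q7-T, 4312 to 4531 in Q111-C and 1741 to 2075 in Q111-T. These markers did not move together between the nontreated lines: Col1a2 (3.81) and Col3a1 (2.0) were higher in STHdhQ111 cells and Acta2 (-5.59) was lower. All 5 neural progenitor markers with a row reached 0.5 TPM, while Hes5 had no row. The summed level of these 5 was 77.1 to 129 TPM in Q7-C, 37.0 to 106 in Q7-T, 12.8 to 17.2 in Q111-C and 11.5 to 15.3 in Q111-T. Nes (-3.18), Sox2 (-3.64), Pax6 (-6.16) and Msi1 (-1.32) were called lower in nontreated STHdhQ111 cells, while Fabp7 was at 1.55 with no overlap (edgeR adjusted p = 0.0537). The neuronal marker Stmn2 was also lower (-5.53). Of 7 astrocyte markers, Gja1, Slc1a3 and Aldh1l1 reached 0.5 TPM and Gfap, Aqp4, Slc1a2 and S100b did not. Their summed level was 21.0 to 39.1 TPM in Q7-C, 15.6 to 41.7 in Q7-T, 74.0 to 89.2 in Q111-C and 70.0 to 84.3 in Q111-T, with Slc1a3 higher (3.18) and Aldh1l1 lower (-3.56) in nontreated STHdhQ111 cells. The part of these markers in the results below was not tested. Q7-C replicate 1, Q7-T replicate 2 and Q111-T replicate 2 stood apart from the other libraries of their groups. Long genes read low in them: the median log2 deviation of the longest genes (5959 bases or more) minus that of the shortest (1729 bases or less) was -0.957, -1.113 and -0.573 there, against -0.138 to 0.663 in the other 9 libraries. Counts of the 53 genes are therefore also given without these 3 libraries. The TPM scale and the scale of the test differ: between the nontreated lines, the median of all genes was 0.274 in favour of STHdhQ111 on log2(TPM + 0.5), and -0.02 in the test, which scales counts by TMM.

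A gene was called when edgeR's quasi-likelihood test gave a Benjamini-Hochberg adjusted p under 0.05 over all genes and at least a 2-fold change. Below, "rose" or "fell" refers to called genes. Groups often did not overlap on TPM. Of all 16127 genes, this held for 8295 between the nontreated and 7468 between the treated lines. For the responses of STHdhQ7 and STHdhQ111 cells it held for 2330 and 7996. Of the 53 genes, it held for 34, 20, 4 and 33 in the same order. In Q111-C vs. Q7-C, 2 of the 53 genes were called higher (Cdkn1c and Ccnb2) and 3 lower (Ccnd1, Ccnd2 and Cdkn1a). Of all genes tested, 7.62% were called higher and 7.61% lower, and 22.7% had an adjusted p under 0.05 at any size of change, as 6 of the 53 had. In Q111-T vs. Q7-T, 3 were higher (Cdkn1a, Ccne2 and E2f8) and 3 lower (Ccnd1, Ccnd2 and Cdkn2a), beside 13.3% higher, 11.2% lower and 38.4% at any size among all genes, and 22 of the 53 had an adjusted p under 0.05. In Q7-T vs. Q7-C, 0 of the 53 were called and 0 had an adjusted p under 0.05 in edgeR. An unadjusted p under 0.05 was found for 7 of the 53, beside 2491 of all 16127 genes. DESeq2 and limma on log2(TPM + 0.5) also called 0. Among all genes, 2.93% were called higher, 1.11% lower and 5.35% had an adjusted p under 0.05. In Q111-T vs. Q111-C, 4 were higher (Cdkn1a, Ccne2, Rrm2 and Tyms) and 0 lower, beside 8.28% and 2.96% of all genes. At any size, 11 of the 53 had an adjusted p under 0.05, against 18.7% of all genes. The interaction tests whether the response of STHdhQ111 cells differs from that of STHdhQ7 cells. It called 3 members higher (Cdkn1a, Ccne2 and Rrm2) and 0 lower, beside 3.52% and 1.2% of all genes, and 5.7% of all genes had an adjusted p under 0.05 there. The shares of members called were thus near or under those of all genes in each comparison, and the called members lay mostly among the cyclins and CDK inhibitors. Without the 3 libraries that stood apart, the counts called in these comparisons were 6, 5, 0, 4 and 3. Between the nontreated lines Cdkn2c was gained (1.09). In Q111-T vs. Q7-T, E2f8 (0.96) and Cdkn2a (-0.83) were lost and Cdkn1c (1.92) was gained. In treated STHdhQ111 cells Tyms (0.92) was lost and Plk1 was gained as a lower gene (-1.03), so that 4 higher and 0 lower became 3 higher and 1 lower.

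**Figure D1:**
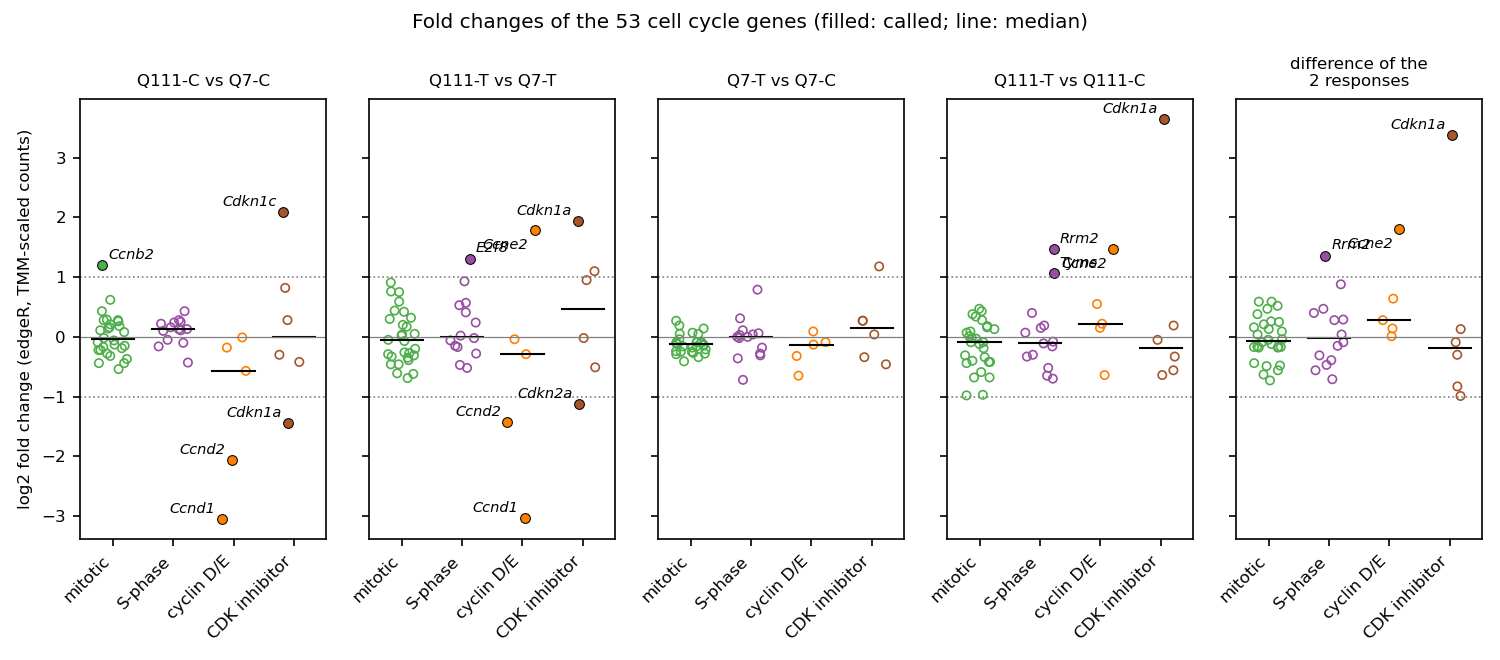
Log2 fold changes (edgeR, TMM-scaled counts) of the 53 genes by role in the 4 pairwise comparisons and in the difference of the responses of the 2 lines, with called genes filled and named, role medians as black lines and dotted lines at 2-fold. Mitotic and S-phase genes cluster near 0, while Ccnd1 lies at -3.05 and -3.03 between the lines and Cdkn1a at 3.65 in treated STHdhQ111 cells.

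Few mitotic genes passed the test between groups. In Q111-C vs. Q7-C, 1 of 28 was called, with a median log2 fold change of -0.04 over the 28, beside -0.02 over all genes. On log2(TPM + 0.5), where all genes shifted up, the median of the 28 was 0.30. In the other comparisons 0 of 28 were called, and the medians were -0.06 between the treated lines, -0.12 for the response of STHdhQ7 cells and -0.09 for that of STHdhQ111 cells. Summed over the 28 genes, the level was 1861, 2409 and 2491 TPM in the Q7-C libraries and 2773, 2822 and 2878 TPM in the Q111-C libraries. After IFNγ/LPS it was 1216, 2123 and 2213 TPM in STHdhQ7 cells and 2110, 2350 and 2389 TPM in STHdhQ111 cells. The lowest sums of the STHdhQ7 groups belong to the libraries in which long genes read low, the nontreated lines do not overlap on this scale, and the treated lines do. In bulk RNA, a change in the share of cells that are dividing and a change in the level per cell cannot be told apart.

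**Figure D2:**
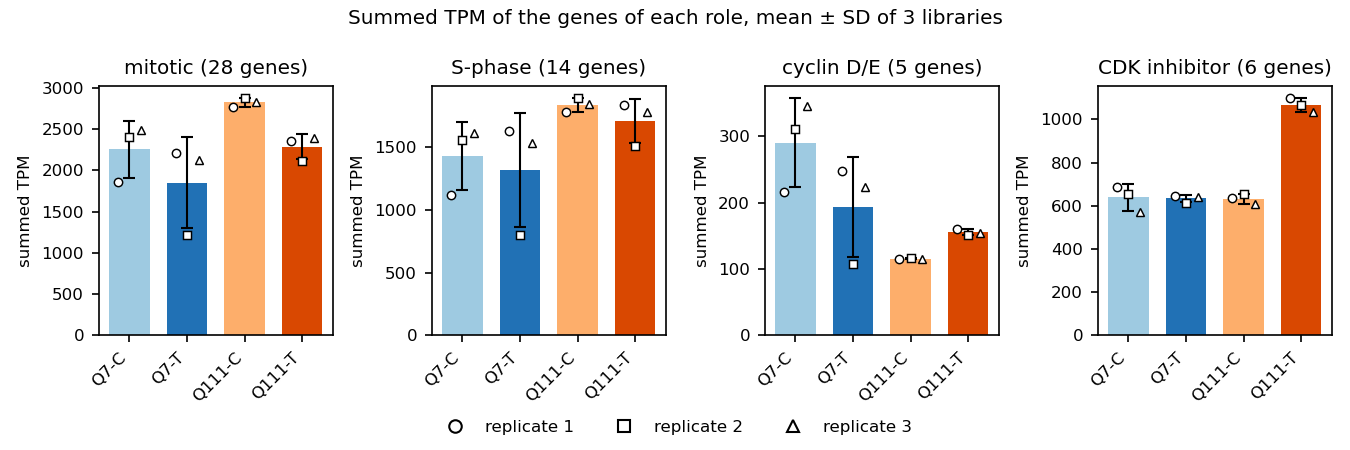
Summed TPM of the genes of each role, with bars for the mean of 3 libraries, error bars for the SD, and points for replicates 1 to 3. The sum of the CDK inhibitors is 1068 ± 31.6 TPM in Q111-T and between 633 and 638 TPM in the other groups, while mitotic and S-phase sums are lowest in Q7-T replicate 2 (1216 and 797 TPM).

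The common markers of dividing cells were abundant in every group. Mki67 (the Ki-67 antigen, a coat of mitotic chromosomes) had 33.8, 73.8 and 92.8 TPM in the Q7-C libraries and 114, 120.1 and 134 TPM in the Q111-C libraries. After treatment, Mki67 had 22.5, 56.2 and 73.3 TPM in STHdhQ7 cells and 43.5, 99.2 and 121 TPM in STHdhQ111 cells. The nontreated groups do not overlap and the treated groups do, and in the test the log2 fold changes between the lines were 0.62 (standard error 0.34) and 0.44 (standard error 0.34), neither called. Top2a (topoisomerase IIα, which untangles replicated DNA) averaged 128 ± 43.9 TPM over the Q7-C and 175 ± 7.42 TPM over the Q111-C libraries (SD, n = 3), and its log2 fold changes lay between -0.02 and 0.18 in the 4 pairwise comparisons. Its exons overlap the small RNA gene Gm23451 on the same strand, so that some of its reads could belong to that gene. Cdk1, the kinase that starts mitosis, had 107 ± 9.93, 99.0 ± 13.1, 118 ± 2.44 and 108 ± 23.1 TPM (SD, n = 3) in Q7-C, Q7-T, Q111-C and Q111-T, and of the 4 pairwise comparisons the groups stood apart in Q111-C vs. Q7-C alone, where its log2 fold change was -0.22 in the test. Foxm1, the factor that activates mitotic genes, had log2 fold changes of 0.11 between the nontreated and -0.39 between the treated lines (edgeR adjusted p = 0.0491), and its exons overlap Tex52 and Gm44596 on the same strand.

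Of the B-type cyclins, which activate CDK1, Ccnb2 was called higher in STHdhQ111 than in STHdhQ7 cells before treatment, and Ccnb1 was called in no comparison. Ccnb2 (ENSMUSG00000032218, GRCm38 chromosome 9, 70407692 to 70421547, minus strand) had 56.4, 58.0 and 65.1 TPM in the Q7-C libraries. It had 163, 179 and 184 TPM in the Q111-C libraries. Every Q111-C library thus lay above every Q7-C library, and the log2 fold change was 1.20 (standard error 0.22, edgeR adjusted p = 0.0018). Whichever library was left out, it stayed between 1.12 and 1.45. In Q111-T the level was 92.4, 97.1 and 112 TPM, below every Q111-C library and above the 38.6, 46.1 and 49.9 TPM of Q7-T. The treated STHdhQ111 cells differed from the nontreated by -0.68 on the log2 scale (edgeR adjusted p = 0.0468) and from treated STHdhQ7 cells by 0.76 (edgeR adjusted p = 0.0164), both under 2-fold. Ccnb1 averaged 84.4 ± 22.1 TPM over the Q7-C and 126 ± 8.55 TPM over the Q111-C libraries (SD, n = 3), with a log2 fold change of 0.29 that was not called, and 0.42 (edgeR adjusted p = 0.0433) between the treated lines.

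Smaller differences between the treated lines were spread over both directions in edgeR. In Q111-T vs. Q7-T, 10 of 28 mitotic genes had an adjusted p under 0.05, beside 38.4% of all genes. All 10 had less than a 2-fold change, 5 of them higher and 5 lower. Those higher were Ccnb1, Ccnb2, Aurkb (0.75), Bub1 (0.59) and Cenpe (0.91). Those lower were Plk1 (-0.69), Tpx2 (-0.46), Prc1 (-0.61), Foxm1 and Mybl2 (-0.62). On TPM, 8 of the 28 had every Q111-T library above every Q7-T library and 0 below, beside 5459 and 2009 of all 16127 genes. With limma on log2(TPM + 0.5), Aurkb (1.14), Bub1 (1.0), Ccnb2 (1.16) and Cenpe (1.3) were called higher and no mitotic gene lower. In Q111-T vs. Q111-C, 4 of 28 had an adjusted p under 0.05 in edgeR, beside 18.7% of all genes. All 4 were lower and by less than 2-fold: Ccnb2, Plk1 (-0.97), Bub1b (-0.68) and Kif20a (-0.59). Plk1, a kinase of mitotic entry and cytokinesis, had 213, 215 and 226 TPM in Q111-C and 94.5, 101.2 and 115 TPM in Q111-T, with no overlap. Its log2 fold change had a standard error of 0.15 (edgeR adjusted p = 9.62e-04), and it was called lower in 9 of 26 alternatives, at -1.08 to -1.01. These were upper-quartile scaling, library totals alone, limma with each of 3 pseudocounts, the 3 libraries that stood apart left out together (-1.03), and Q111-C replicate 3 (-1.01), Q111-T replicate 1 (-1.02) or Q111-T replicate 2 (-1.07) left out alone. Cenpf, a long kinetochore gene, was at -0.98 (edgeR adjusted p = 0.0618) and was called lower with upper-quartile scaling (-1.07) and when the trend with transcript length was removed (-1.05). In the interaction, Cenpf was called with that trend removed (-1.02). With the trend left in, edgeR gave an adjusted p under 0.05 for 0 of 28 and DESeq2 for 2, beside 5.7% of all genes in edgeR. An unadjusted p under 0.05 was found for 5 of the 28 in edgeR, beside 3198 of all 16127 genes. The other 12 mitotic genes had no adjusted p under 0.05 in any comparison. They were Ccna2 (cyclin A2), Cdc20 and Ube2c (activator and ubiquitin-conjugating enzyme of the anaphase-promoting complex), Aurka, Ttk and Mad2l1 (spindle and checkpoint proteins), Kif11 and Kif23 (kinesins), Cenpa (the centromeric histone), Nusap1, Birc5 and Ect2. Their log2 fold changes lay between -0.54 and 0.14 for the nontreated lines, between -0.41 and 0.19 for treated STHdhQ7 cells and between -0.40 and 0.34 for treated STHdhQ111 cells. Cdc20 averaged 280.4 ± 16.7 TPM over Q7-C, 228 ± 32.8 over Q7-T, 317 ± 9.09 over Q111-C and 237 ± 22.2 over Q111-T (SD, n = 3).

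Among the 14 S-phase genes, 3 were called. E2f8 was called between the treated lines (7.1% of the 14, beside 24.5% of all genes). Rrm2 and Tyms were called after treatment of STHdhQ111 cells (14.3%, beside 11.2%), and Rrm2 in the interaction (7.1%, beside 4.7%). The median log2 fold change of the 14 was 0.13 between the nontreated and 0.0 between the treated lines. It was 0.0 after treatment of STHdhQ7 cells and -0.1 after that of STHdhQ111 cells. On log2(TPM + 0.5) the median between the nontreated lines was 0.46, with all genes at 0.274. The 6 subunits of the MCM helicase, which unwinds DNA at the fork, had log2 fold changes between -0.05 and 0.28 for the nontreated lines and between -0.70 and -0.16 for the response of STHdhQ111 cells. Mcm2 had 107, 109.5 and 118 TPM in Q111-C and 51.4, 65.7 and 76.4 TPM in Q111-T, so that all treated libraries were lower, but its change of -0.70 (edgeR adjusted p = 0.0649) did not pass. Mcm5 (-0.65, edgeR adjusted p = 0.0073) and Mcm6 (-0.52, edgeR adjusted p = 0.0379) had an adjusted p under 0.05 there with less than a 2-fold change. Mcm7, whose exons overlap Mir25 and Mir93 on the same strand, differed between the treated lines (-0.52, edgeR adjusted p = 0.00541). The licensing factors Cdc6 and Cdt1, which load the helicase, had no adjusted p under 0.05, and Cdt1 averaged 85.5 ± 3.62 TPM over Q111-C and 84.4 ± 13.7 TPM over Q111-T (SD, n = 3). Pcna, the sliding clamp of the replicative polymerases, had 266, 294 and 301 TPM in Q111-C and 320, 344 and 385 TPM in Q111-T, with a log2 fold change of 0.40 (edgeR adjusted p = 0.112). E2f1, an activator of S-phase genes, averaged 29.7 ± 3.75 TPM over the Q7-C and 39.7 ± 1.6 TPM over the Q111-C libraries (SD, n = 3), with a log2 fold change of 0.10. Between the treated lines it was 0.57 (edgeR adjusted p = 0.042).

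Of the 14 S-phase genes, Rrm2 and Tyms rose in STHdhQ111 cells after treatment. Rrm2 encodes the small subunit of ribonucleotide reductase (ENSMUSG00000020649, chromosome 12, 24708241 to 24714146, plus strand). It had 77.3, 85.3 and 86.4 TPM in Q111-C and 205, 212 and 222 TPM in Q111-T. The log2 fold change was 1.47 (standard error 0.24, edgeR adjusted p = 0.00119), and no Q111-T library overlapped Q111-C. In STHdhQ7 cells it had 66.0, 103 and 105 TPM before and 36.1, 108 and 132 TPM after treatment, which overlap, with a log2 fold change of 0.11. The difference of the 2 responses was 1.36 (standard error 0.34, edgeR adjusted p = 0.0377). That call was lost in 15 of 25 alternatives, including 9 of the 12 in which a library was left out, where the difference stayed between 1.08 and 1.59. Without the single library concerned, it was 1.31, 1.35 and 1.36 for Q111-C replicates 1 to 3, 1.39, 1.21 and 1.41 for Q111-T replicates 1 to 3, 1.30 and 1.31 for Q7-C replicates 2 and 3, and 1.44 for Q7-T replicate 3. Rrm1, the large subunit, had 97.2 ± 2.68 TPM in Q111-C and 85.0 ± 18.4 TPM in Q111-T (SD, n = 3), and differed by -0.11 on the log2 scale (standard error 0.18).

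Tyms (thymidylate synthase, which makes dTMP) had 39.6, 39.6 and 39.7 TPM in Q111-C and 72.5, 74.3 and 84.0 TPM in Q111-T. Its log2 fold change was 1.07 (standard error 0.27, edgeR adjusted p = 0.0167). In STHdhQ7 cells the 3 treated libraries (32.3, 37.4 and 44.4 TPM) also lay above the nontreated (24.8, 27.0 and 28.0 TPM), with a log2 fold change of 0.79 (edgeR adjusted p = 0.154) and an interaction of 0.29 that was not called. The call in STHdhQ111 cells was lost in 10 of 26 alternatives. It was 1.07, 1.03 and 1.04 without Q111-C replicates 1, 2 and 3, with adjusted p between 0.0586 and 0.0672, and 0.88 without Q111-T replicate 2. Without Q7-T replicate 1, Tyms was called in STHdhQ7 cells as well (1.01, edgeR adjusted p = 0.0465).

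E2f8, an atypical E2F that represses E2F targets late in S phase, was low in all groups. It had 4.77, 9.24 and 10.7 TPM in Q7-C against 12.7, 13.1 and 14.5 TPM in the Q111-C libraries. After treatment it had 1.40, 5.47 and 7.01 TPM in Q7-T and 13.2, 14.1 and 14.4 TPM in Q111-T. The treated groups do not overlap, and their log2 fold change was 1.31 (standard error 0.33, edgeR adjusted p = 0.00872). The lowest value is that of Q7-T replicate 2, and without this library the change was 0.97, just under 2-fold. Neither response to treatment alone was called (-0.72 in STHdhQ7 and 0.15 in STHdhQ111 cells).

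**Figure D3:**
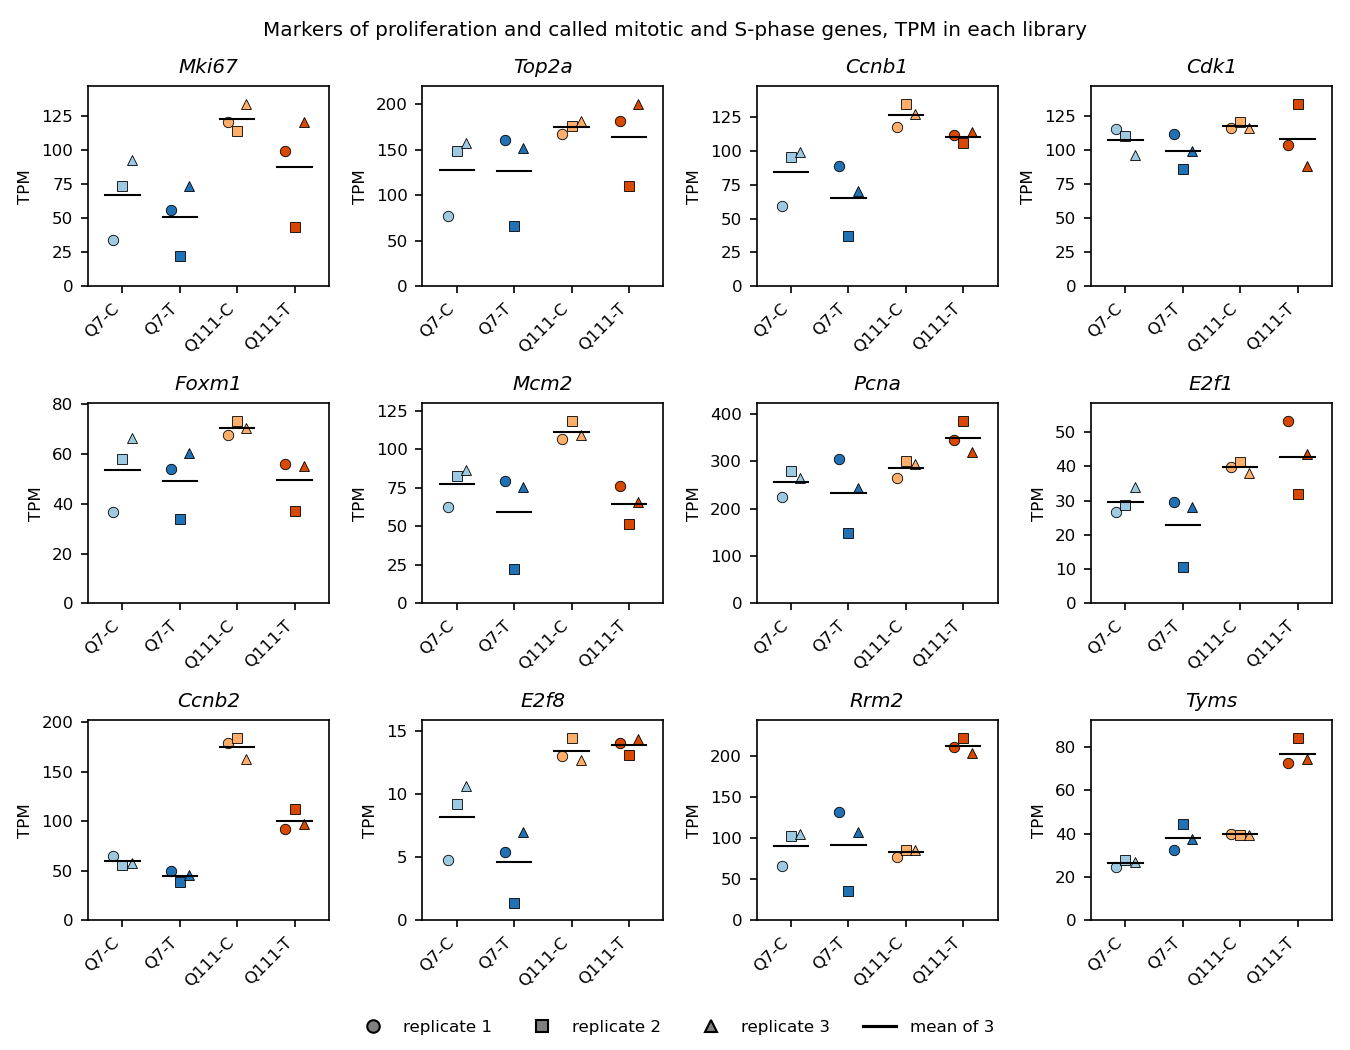
TPM in each library of 8 markers of proliferation and replication (Mki67, Top2a, Ccnb1, Cdk1, Foxm1, Mcm2, Pcna and E2f1) and of the called mitotic and S-phase genes (Ccnb2, E2f8, Rrm2 and Tyms), with the mean of 3 as a line. Rrm2 lies between 205 and 222 TPM in Q111-T and at or under 132 TPM elsewhere, and Ccnb2 is highest in Q111-C (163 to 184 TPM).

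The promoters of the mitotic and S-phase genes, which the choice of genes did not use, were read as well. RefSeq promoter windows of GRCm38.p6, from 250 bases before to 50 bases after a start, were found for 43 of the 53 genes. On either strand, the letters TTTGAA (the CHR element of mitotic promoters) occurred in the windows of 16 of 23 mitotic genes (69.6%) and 2 of 13 S-phase genes (15.4%), against 20.2% of the 27025 genes with a window. The letters CCAAT were present for 19 of 23 mitotic (82.6%) and 9 of 13 S-phase genes (69.2%), against 41.1%. Any of the E2F words TTTGGCGC, TTTGCCGC, TTTCGCGC and TTTCCCGC occurred for 1 of 23 mitotic (4.35%) and 6 of 13 S-phase genes (46.2%), against 2.6%. These matches are descriptions of the letters and not of bound factors. The windows of 4 genes are shown to set these layouts beside the values above, with the matched letters in capitals and each read along the strand of its gene. Ccnb2 (chr9:70421505-70421804, minus strand), which was higher in STHdhQ111 cells, has TTTGAA at positions -167 and 5 from the first base of the transcript and CCAAT at -87, -54 and -21. Mcm5 (chr8:75109259-75109558, plus strand), a helicase subunit that was not called, has E2F words at -153 and -149 that overlap each other on opposite strands, and CCAAT at -77, -22 and 7. E2f8 (chr7:48881547-48881846, minus strand) has CCAAT at -112 and TTTGAA at -20, both on the reverse strand. Rrm2 (chr12:24708004-24708303, plus strand), which rose in treated STHdhQ111 cells, has CCAAT at -50 and no match to the other letters in this window.
Ccnb2: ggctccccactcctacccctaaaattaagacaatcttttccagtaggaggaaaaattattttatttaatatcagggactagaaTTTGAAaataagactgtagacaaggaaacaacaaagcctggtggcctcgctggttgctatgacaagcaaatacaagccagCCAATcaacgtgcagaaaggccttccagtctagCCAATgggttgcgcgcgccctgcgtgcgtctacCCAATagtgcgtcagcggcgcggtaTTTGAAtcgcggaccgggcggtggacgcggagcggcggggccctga
Mcm5: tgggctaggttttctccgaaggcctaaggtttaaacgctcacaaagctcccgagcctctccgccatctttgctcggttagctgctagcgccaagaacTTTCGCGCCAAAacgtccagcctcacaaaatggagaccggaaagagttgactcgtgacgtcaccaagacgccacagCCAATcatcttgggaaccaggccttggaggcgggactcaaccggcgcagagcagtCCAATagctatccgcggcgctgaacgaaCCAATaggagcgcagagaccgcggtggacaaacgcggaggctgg
E2f8: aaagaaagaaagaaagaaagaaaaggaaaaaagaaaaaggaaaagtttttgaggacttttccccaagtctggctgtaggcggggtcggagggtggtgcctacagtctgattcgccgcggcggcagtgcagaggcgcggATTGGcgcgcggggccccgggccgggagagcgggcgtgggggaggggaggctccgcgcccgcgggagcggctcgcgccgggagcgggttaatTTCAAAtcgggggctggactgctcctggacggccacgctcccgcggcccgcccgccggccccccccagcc
Rrm2: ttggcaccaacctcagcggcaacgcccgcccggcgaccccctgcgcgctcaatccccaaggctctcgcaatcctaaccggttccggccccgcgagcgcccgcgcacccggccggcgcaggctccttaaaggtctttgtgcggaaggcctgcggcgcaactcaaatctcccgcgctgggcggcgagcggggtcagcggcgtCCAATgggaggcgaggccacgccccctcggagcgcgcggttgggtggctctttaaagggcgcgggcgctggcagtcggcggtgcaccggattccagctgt

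Among the D-type cyclins, Ccnd1 and Ccnd2 were called lower in STHdhQ111 than in STHdhQ7 cells in both states and Ccnd3 in neither. Ccnd1 (cyclin D1, ENSMUSG00000070348, chromosome 7, 144929931 to 144939925, minus strand) had 132, 213 and 239 TPM in Q7-C against 26.4, 29.1 and 30.6 TPM in the Q111-C libraries. After treatment it had 57.8, 132 and 147 TPM in STHdhQ7 cells and 12.5, 19.7 and 20.1 TPM in STHdhQ111 cells. In both states every STHdhQ111 library lay below every STHdhQ7 library. The log2 fold changes between the lines were -3.05 (standard error 0.20, edgeR adjusted p = 1.06e-06) and -3.03 (standard error 0.20, edgeR adjusted p = 1e-06), and the call held in all 26 alternatives of each. Neither response to treatment was called. The log2 fold change was -0.65 in STHdhQ7 cells (edgeR adjusted p = 0.0718), whose groups overlap, and -0.64 in STHdhQ111 cells (edgeR adjusted p = 0.0325), whose groups do not, and the difference of the responses was 0.01 (standard error 0.26).

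Ccnd2 (cyclin D2, chromosome 6, 127125162 to 127152193, minus strand) was lower in STHdhQ111 cells too. It had 12.2, 19.7 and 24.2 TPM in Q7-C against 5.23, 5.52 and 5.54 TPM in Q111-C, with no overlap and a log2 fold change of -2.06 (standard error 0.18, edgeR adjusted p = 1.01e-05). Between the treated lines it was -1.43 (standard error 0.18, edgeR adjusted p = 1.03e-04). There the TPM of Q7-T replicate 2 (8.33) lay below the highest of Q111-T (8.35), and limma on TPM gave -0.99 to -0.91, under 2-fold. Ccnd3, the third D-type cyclin, averaged 27.2 ± 1.47 TPM over the Q7-C and 23.3 ± 0.857 TPM over the Q111-C libraries (SD, n = 3), a difference of -0.57 (edgeR adjusted p = 0.0368) under 2-fold, and -0.29 (edgeR adjusted p = 0.214) after treatment. Per length of transcript, Ccnd1 was the highest of the 3 D-type cyclins in STHdhQ7 cells by mean TPM (195 in Q7-C and 112 in Q7-T), while in Q111-T it was under Ccnd3 (17.4 against 23.9 TPM).

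The E-type cyclins, which activate CDK2 at the start of S phase, were called for Ccne2 and not for Ccne1. Ccne2 (ENSMUSG00000028212, chromosome 4, 11191351 to 11204779, plus strand) had 25.7, 29.5 and 32.7 TPM in Q111-C and 72.1, 73.3 and 79.9 TPM in Q111-T. The log2 fold change was 1.47 (standard error 0.26, edgeR adjusted p = 0.00181) with no overlap. That call was lost in 1 of 26 alternatives, limma on log2(TPM + 0.1) (1.36, limma adjusted p = 0.0532). In STHdhQ7 cells it had 16.6, 26.5 and 29.3 TPM before and 7.06, 19.9 and 26.9 TPM after treatment, which overlap, and the log2 fold change was -0.32. The interaction was 1.80 (standard error 0.36, edgeR adjusted p = 0.0131). It stayed between 1.52 and 2.07 whichever library was left out and kept its call there, and lost it with limma on TPM (1.88 to 1.95, adjusted p between 0.0682 and 0.113). Between the nontreated lines Ccne2 was at -0.01, and between the treated lines at 1.79 (edgeR adjusted p = 2.93e-04). Its exons overlap Ints8 on the opposite strand. Ccne1 had 25.8 ± 0.854, 24.8 ± 6.30, 28.7 ± 3.26 and 31.3 ± 3.63 TPM (SD, n = 3) in Q7-C, Q7-T, Q111-C and Q111-T, and its groups overlap in each pairwise comparison.

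**Figure D4:**
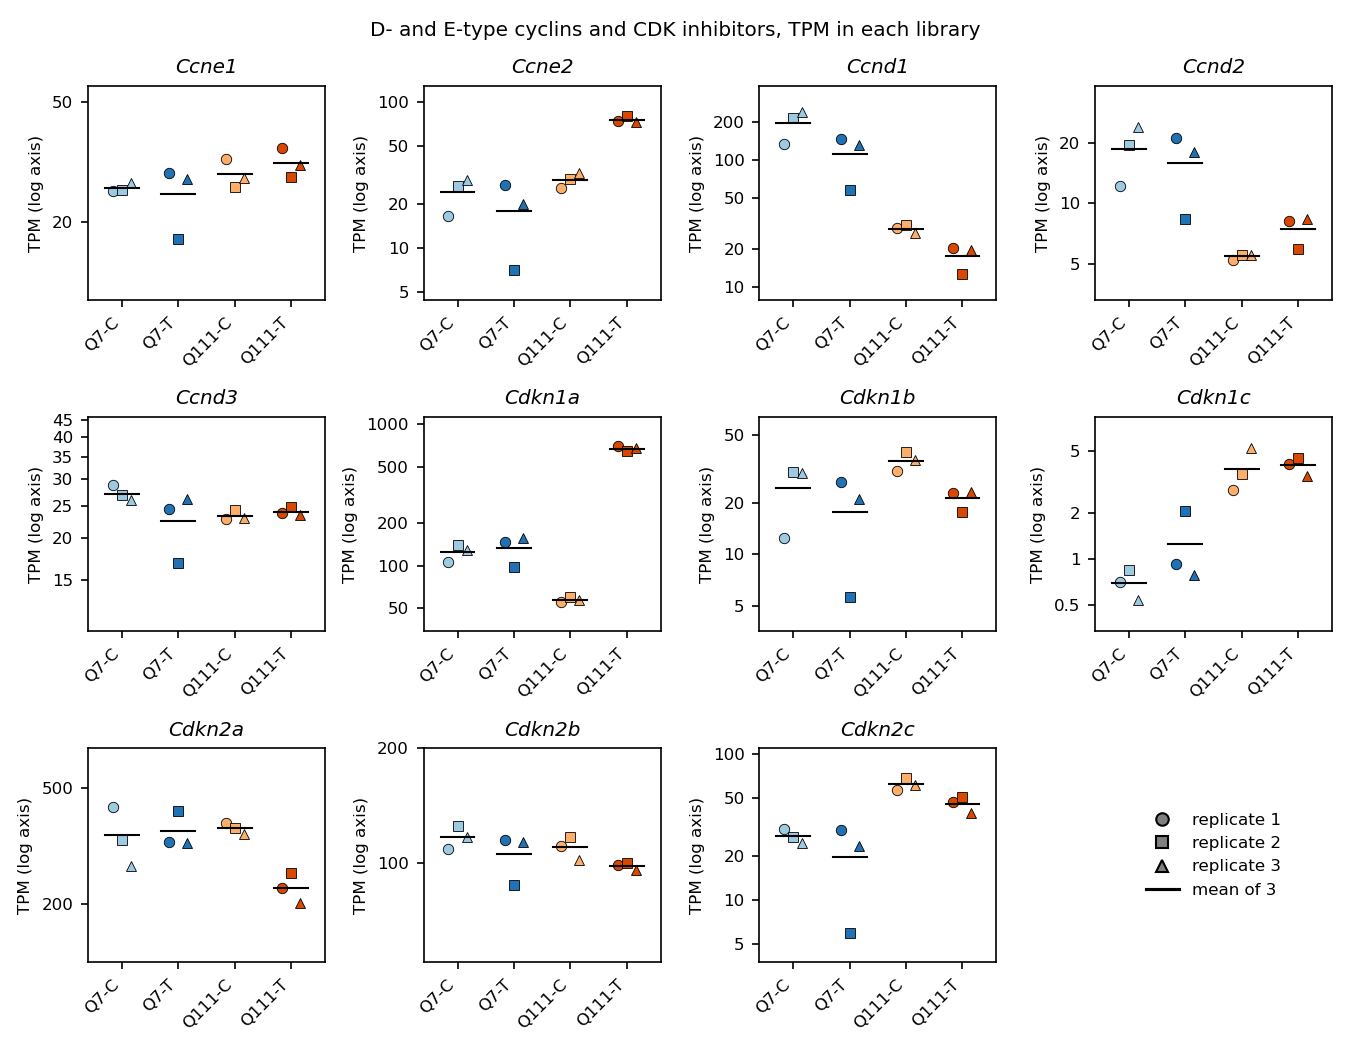
TPM on a log axis of the 5 D- and E-type cyclins and the 6 CDK inhibitors in each library, with the mean of 3 as a line. Ccnd1 and Ccnd2 are lower in both STHdhQ111 groups, Ccne2 and Cdkn1a stand out in Q111-T (72.1 to 79.9 and 642 to 700.2 TPM), and Q7-T replicate 2 is the lowest Q7-T library for 9 of the 11 genes.

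Cdkn1a had the largest change of the 53 genes in treated STHdhQ111 cells, and its response differed between the lines. Cdkn1a (p21, an inhibitor of CDK2 complexes, ENSMUSG00000023067, chromosome 17, 29090976 to 29100727, plus strand) had 106, 129 and 140.4 TPM in Q7-C. Nontreated STHdhQ111 cells had less, with 55.1, 57.2 and 60.6 TPM. The groups do not overlap, and the log2 fold change was -1.44 (standard error 0.12, edgeR adjusted p = 9.15e-06). After IFNγ/LPS, Cdkn1a had 642, 673 and 700.2 TPM in STHdhQ111 cells and 97.7, 146 and 158 TPM in STHdhQ7 cells. In Q111-T vs. Q111-C the log2 fold change was 3.65 (standard error 0.14, edgeR adjusted p = 7.97e-08). In Q7-T vs. Q7-C it was 0.27 (standard error 0.12, edgeR adjusted p = 0.322), and the groups overlap. The difference of the 2 responses was 3.38 (standard error 0.18, edgeR adjusted p = 1e-05) and stayed between 3.30 and 3.47 in all 25 alternatives, with the call kept in each. The order of the lines thus turned around: Cdkn1a was lower in STHdhQ111 than in STHdhQ7 cells before treatment, and higher after it (1.94, standard error 0.13, edgeR adjusted p = 9.98e-07). Its exons overlap AC167363.2 on the opposite strand, and the strand setting of the counting is not given in the sources used here.

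RefSeq gives Cdkn1a 2 starts with a window each. The window at the upstream start (chr17:29090729-29091028, plus strand) holds a p53 response element, searched for as 2 half-sites of 10 bases with no spacer and at most 1 mismatch outside their core C and G, on both strands. It begins at position -51 and is in capitals below, since p53 is the best known activator of this gene. Of all 32851 windows, 22 (0.067%) hold such an element. The window at the other start (chr17:29093519-29093818) holds none, and none of the 4 searches matched there. Of the 17 genes of the p53 pathway list described below that have a window, 1 holds such an element (Ccng1), and of 38 further mitotic genes 1 does (Gtse1). A match says nothing about binding.
Cdkn1a: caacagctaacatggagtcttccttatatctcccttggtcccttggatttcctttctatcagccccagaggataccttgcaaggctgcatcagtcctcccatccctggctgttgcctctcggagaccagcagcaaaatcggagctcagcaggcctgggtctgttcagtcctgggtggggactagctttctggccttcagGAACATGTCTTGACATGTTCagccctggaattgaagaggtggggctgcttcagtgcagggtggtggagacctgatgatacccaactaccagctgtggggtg

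None of the other 5 CDK inhibitors was called in the response of either line to treatment. Cdkn1b (p27) had 24.3 ± 10.3, 17.7 ± 10.8, 35.4 ± 4.49 and 21.2 ± 3.16 TPM (SD, n = 3) in Q7-C, Q7-T, Q111-C and Q111-T, and was called in none of the comparisons. Cdkn1c (p57, an imprinted inhibitor) was low, with 0.543, 0.713 and 0.845 TPM in Q7-C against 2.80, 3.54 and 5.21 TPM in the Q111-C libraries. The groups do not overlap and the log2 fold change was 2.09 (standard error 0.54, edgeR adjusted p = 0.0151). The call was lost without Q7-C replicate 3 (1.90, adjusted p = 0.0557) and without Q111-C replicate 3 (1.85, adjusted p = 0.055). Between the treated lines it was 1.1 and not called (edgeR adjusted p = 0.116), and 2.07 without Q7-T replicate 2, where it passed.

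The INK4 inhibitors, which block CDK4 and CDK6, gave smaller differences. Cdkn2a was the most abundant of the 6 inhibitors in Q7-C, Q7-T and Q111-C by mean TPM, at 344 ± 81.0, 356 ± 52.4 and 364 ± 16.5 TPM, and had 227 ± 26.7 TPM in Q111-T (SD, n = 3). Its gene-level values cannot separate its products p16INK4a and p19ARF, of which the latter stabilizes p53. It was lower in Q111-T (201, 226 and 255 TPM) than in Q7-T (324, 327 and 416 TPM), without overlap, at -1.13 (standard error 0.34, edgeR adjusted p = 0.0228). That call was lost in 10 of 26 alternatives. Without the 3 libraries that stood apart the change was -0.83, and without Q7-T replicate 2, Q111-T replicate 1 or Q111-T replicate 3 it was -0.68, -1.06 and -0.99. Cdkn2c had 24.7, 27.1 and 30.3 TPM in Q7-C against 56.4, 61.2 and 68.5 TPM in the Q111-C libraries without overlap, yet its log2 fold change of 0.82 (standard error 0.35, edgeR adjusted p = 0.119) did not pass, and it was 1.09 and called without the 3 libraries. Between the treated lines Cdkn2c was at 0.95 (edgeR adjusted p = 0.0488), under 2-fold, and 1.26 and called without Q7-T replicate 1. Cdkn2b differed by -0.42 (edgeR adjusted p = 0.0812) and -0.51 (edgeR adjusted p = 0.025) between the lines before and after treatment.

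Other genes of the same pathways were read from lists set beside the 53. The KEGG cell cycle list has 89 tested genes that are not among them. In treated STHdhQ111 cells 4 of these rose (Mdm2, Gadd45a, Rb1 and Gadd45b) and 1 fell (Tgfb3), with a median log2 fold change of -0.04, where 8.28% of all genes rose and 2.96% fell. Of 45 further mitotic genes tested, 3 were called higher and 0 lower in Q111-T vs. Q111-C, beside 8.28% and 2.96% of all genes. These were Gtse1 (2.55), a microtubule protein that is known to restrain p53, Ckap2 (2.06), a spindle protein, and Spc25 (1.35), a subunit of the NDC80 kinetochore complex. Gtse1 had 78.7, 86.1 and 93.8 TPM in Q111-C and 458, 463 and 482 TPM in Q111-T, and Gtse1 and Ckap2 were also called in the interaction (2.53 and 1.84). The median of the 45 was -0.06. Between the nontreated lines and for the response of STHdhQ7 cells, 0 of 45 were called by edgeR. An unadjusted p under 0.05 was found there for 9 and 4, beside 5329 and 2491 of all 16127 genes. In Q111-T vs. Q7-T, 3 were higher (Gtse1, Hmmr and Ckap2) and 0 lower, beside 13.3% and 11.2% of all genes. Of 46 further replication genes, 0 were called between the nontreated lines, for either response or in the interaction. An unadjusted p under 0.05 was found for 9 (nontreated lines), 2 (STHdhQ7), 8 (STHdhQ111) and 5 (interaction). Of all 16127 genes, 5329, 2491, 4784 and 3198 had such a p in the same order. Between the treated lines, Clspn (1.22) and Cdc7 (1.02) were higher and Pold2, a subunit of DNA polymerase δ, was lower (-1.88), so that 6.5% of the 46 were called, a smaller share than that of all genes. The 28 KEGG DNA replication genes that are not among the 53 gave 0 higher and 4 lower in this comparison, namely Pold2, Rnaseh2c (-1.70), Rnaseh2a (-1.1) and Pole3 (-1.09), with a median of -0.17, where 11.2% of all genes were lower. Pold2 kept its call in all 26 alternatives, while Clspn fell short of 2-fold without Q7-T replicate 2 (0.95). Cdc7 lost its call in 16 of 26, including each library left out other than Q7-C replicate 1 and Q7-T replicate 1, and was at 0.63 without Q7-T replicate 2. With the other libraries left out one at a time, Cdc7 was at 0.98 to 1.16 where the call was lost.

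Among 29 regulators of RB, E2F and CDKs, Rb1, Fbxw7 and Ccng1 were called higher after treatment of STHdhQ111 cells, as they were in the interaction. All genes gave 8.28% and 3.52% higher in these comparisons, so that 3 of 29 is near the general share in the former. Rb1, the retinoblastoma gene itself, had 6.81, 7.63 and 9.05 TPM in Q111-C and 23.5, 26.0 and 26.0 TPM in Q111-T (log2 fold change 1.79, edgeR adjusted p = 3.88e-04). Fbxw7, the ubiquitin ligase subunit that targets cyclin E, had 3.95, 4.64 and 4.67 TPM before and 12.5, 12.6 and 13.3 TPM after treatment (1.63, edgeR adjusted p = 3.26e-05). Both had no overlap. Cdk6, a partner of the D-type cyclins, was the 1 gene of this list that rose in Q7-T vs. Q7-C (1.12, edgeR adjusted p = 0.00112), and it lost that call in 6 of 26 alternatives, with values down to 0.83, among them the fit without Q7-C replicate 1 (0.98). Between the nontreated lines, Ccng2 was higher in Q111-C (1.31) and Fbxw7 (-1.29), Mnat1 (-1.19) and Myc (-1.05) were lower. With limma on TPM, Fbxw7 was at -0.96 to -0.83 and Mnat1 at -0.85 to -0.82, under 2-fold. The call of Myc was lost without Q7-C replicate 1 (-0.83), Q111-C replicate 2 (-1.03) or Q111-C replicate 3 (-0.99). After treatment, 4 of the 29 were called higher in STHdhQ111 than in STHdhQ7 cells (Ccng1, Rb1, Ccng2 and Lin9) and 3 lower (Cdk4, Mnat1 and Cdk6), near the 13.3% and 11.2% of all genes. Cdk4, the other partner of D-type cyclins, was at -1.21 (edgeR adjusted p = 0.00509), and at -0.83 without Q7-T replicate 2. Cdk6 was at -1.02, and at -0.96, -0.95 and -0.94 without Q7-T replicate 3, Q111-T replicate 1 and Q111-T replicate 2. Lin9 (1.18) lost its call without Q7-T replicate 2 (0.78), Q7-T replicate 3 (1.25) or Q111-T replicates 1, 2 and 3 (1.29, 1.12 and 1.17).

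Most genes of a p53 pathway list, which does not contain Cdkn1a, were called in treated STHdhQ111 cells. After treatment of STHdhQ111 cells, 16 of 21 genes rose and 0 fell, and the median log2 fold change was 1.84, where 8.28% of all genes were called higher. This list was put together with results of these data known. The p53 signaling pathway of KEGG, as annotated in the deposited table, is wider. Of its 57 tested genes that are not among the 53, 18 rose and 1 fell in STHdhQ111 cells, with a median of 0.55. Of these 18, Pmaip1, Mdm2, Ccng1, Sesn2, Gadd45a, Perp, Bbc3, Zmat3, Gadd45b and Mdm4 are also among the 21. Mdm2, Gadd45a and Gadd45b also belong to the KEGG cell cycle genes above, Gtse1 to the further mitotic genes and Ccng1 to the regulators. The counts of these lists are therefore not independent of each other. In STHdhQ7 cells 1 of 21 rose (Gadd45b, 1.11), beside 2.93% of all genes, and the median was 0.11. Of the 57 KEGG genes, 4 rose in STHdhQ7 cells (Fas, Igfbp3, Cdk6 and Gadd45b) and 1 fell (Serpinb5), with a median of 0.05. Fas, a death receptor, rose by 3.42 on the log2 scale there and by 4.23 in STHdhQ111 cells, and Igfbp3, which binds insulin-like growth factors, rose by 2.60 in STHdhQ7 cells. Gadd45b lost its call without Q7-C replicate 2 (1.00), Q7-C replicate 3 (0.98) or Q7-T replicate 2 (0.87). The interaction called 14 of 21 higher, with a median of 1.80, where 3.52% of all genes were higher and their median was -0.02. There Aen lost its call in 8 of 25 alternatives and Zmat3 in 5. Of the 16 that rose in STHdhQ111 cells, Mdm4 lost its call in 3 of 26. Of the 57 KEGG genes the interaction called 14 higher and 1 lower (Igfbp3, -2.35), with a median of 0.61. These 14 are also among the 21, other than Serpinb5, Gtse1, Pidd1, Ppm1d, Apaf1 and Ei24. A higher interaction is not always a rise. Serpinb5 (5.63) fell in STHdhQ7 cells (-6.69) and was at -1.06, not called, in STHdhQ111 cells. Pmaip1 (NOXA, a cell death protein) had 7.08, 9.53 and 9.58 TPM in Q111-C and 196, 211 and 214 TPM in Q111-T, a log2 fold change of 4.67 (edgeR adjusted p = 6.84e-05). Mdm2, the ubiquitin ligase that degrades p53 and is itself a p53 target, went from 34.8, 40.6 and 44.5 TPM to 742, 854 and 876 TPM (4.47, edgeR adjusted p = 6.73e-07). Trp53inp1, which promotes p53 activity, rose by 3.81 on the log2 scale. In STHdhQ7 cells these 3 genes were at -0.31, 0.18 and 0.18, none of them called. Trp53, which encodes p53, was not called in any comparison, with 116, 122 and 128 TPM in Q111-C and 89.1, 116 and 121 TPM in Q111-T (-0.04). Summed over the 21 genes, the level was 1047, 1072 and 1085 TPM in Q111-C and 3957, 4238 and 4278 TPM in Q111-T, and 1262, 1357 and 1369 TPM in Q7-C and 1171, 1433 and 1505 TPM in Q7-T. Between the nontreated lines, 0 of the 21 were called higher and 4 lower in STHdhQ111 cells (Perp, Gadd45a, Bbc3 and Phlda3), with a median of -0.47, beside 7.62% higher and 7.61% lower among all genes. The KEGG genes went both ways there, with 7 of 57 higher (among them Sesn3 at 1.80 and Ddb2 at 1.37), 6 lower and a median of -0.22. Perp (-2.23) and Gadd45a (-1.93) kept their calls in all 26 alternatives, while Bbc3 and Phlda3 were at -0.84 and -0.80 without Q7-C replicate 1.

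**Figure D5:**
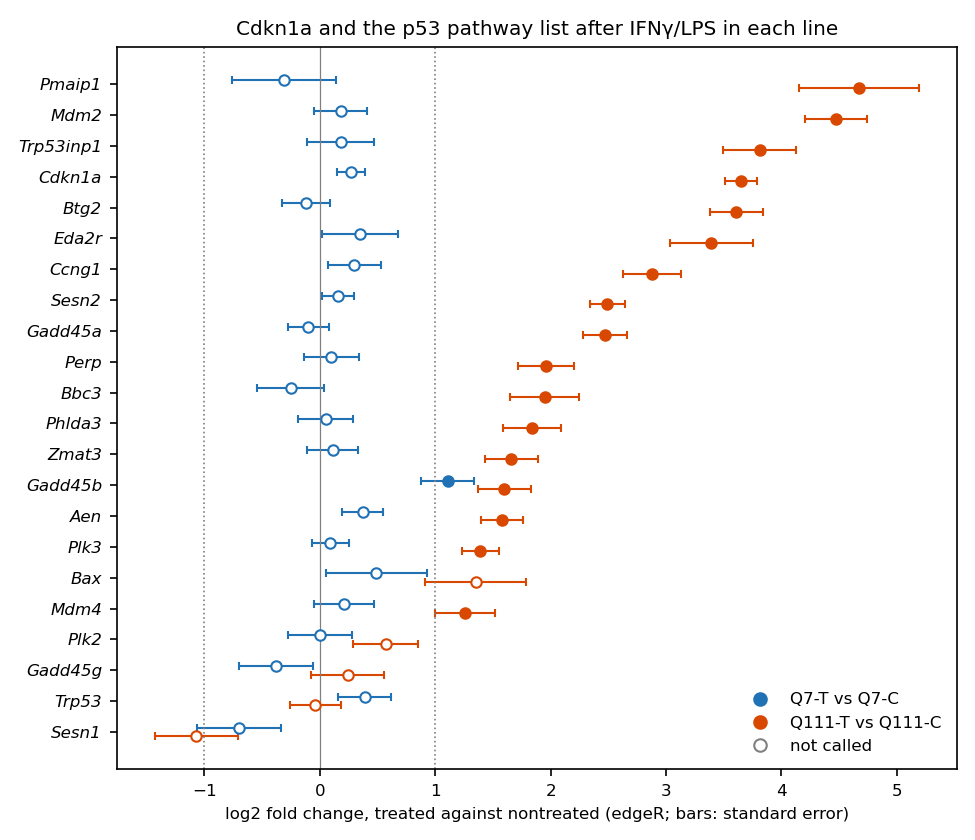
Log2 fold changes (edgeR, bars for the standard error) of Cdkn1a and the 21 genes of the p53 pathway list after IFNγ/LPS in STHdhQ7 (blue) and STHdhQ111 cells (orange), with called genes filled and dotted lines at 2-fold. In STHdhQ111 cells 16 of the 21 list genes and Cdkn1a are called higher, and in STHdhQ7 cells Gadd45b alone is.

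Relative to the other roles, the contrast in treated STHdhQ111 cells was narrow. Cdkn1a rose by 3.65 on the log2 scale, Ccne2 and Rrm2 each by 1.47 and Tyms by 1.07, while Ccnd2 (0.55, edgeR adjusted p = 0.0516) and the remaining D- and E-type cyclins and CDK inhibitors were not called. The 28 mitotic genes ranged from -0.98 to 0.47 and the 14 S-phase genes from -0.70 to 1.47 there. In STHdhQ7 cells, the full range over the 53 genes was -0.72 (E2f8) to 1.18 (Cdkn1c), with a median of -0.10 and no gene called.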

How the data were processed

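Poly(A) RNA of 12 libraries was sequenced from both ends as stranded libraries. According to the methods, the authors trimmed reads with Cutadapt, mapped them with HISAT2 to GRCm38 and quantified genes by StringTie and Ballgown. In 1 table, the authors deposited TPM per gene. The same table holds estimated counts, which the authors left without normalization. Low counts favour multiples of 4, so that counts divided by 4 were an alternative. The strand setting of the counting is not given in the sources used here.

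The rounded estimated counts were tested with edgeR 4.0.16 (quasi-likelihood, TMM, R 4.3.3) in 1 fit of all 12 libraries. Genes needed 0.5 TPM in 3 libraries. P-values were Benjamini-Hochberg adjusted over 16127 genes, and a gene was called under 0.05 with a log2 fold change of at least 1. Alternatives used DESeq2 1.42.0, limma 3.58.1 on log2(TPM + 0.5), other scalings and filters, and each library left out. Leaving out 3 libraries together and removing a trend with transcript length were chosen after seeing the data. Two-sided exact permutation tests of TPM (3 libraries against 3) cannot give p under 0.1. The fit was tested on simulated data.

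The 53 genes, the lists beside them and the genes named were chosen with earlier results of these data known. Named were all D- and E-type cyclins and CDK inhibitors, markers of each stage, and called mitotic and S-phase genes. Genes with smaller differences (Plk1, Cenpf, Rrm1 and the MCM genes) and some genes of the lists, among them Fbxw7, Rb1, Trp53 and Cdk4, were named after their values were seen. KEGG lists, from the deposited annotation, were added after seeing the data. Promoter windows were those of RefSeq.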

Additional observations from a re-analysis of the deposited data

Results flagged for a closer look

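Among the 53 genes, the response to IFNγ/LPS differed between the 2 lines for 3 by the interaction term of edgeR's quasi-likelihood test. The log2 fold change of Cdkn1a was higher by 3.38 in STHdhQ111 than in STHdhQ7 cells, and all 3 treated STHdhQ111 libraries lay above all nontreated ones. That of Ccne2 was higher by 1.80 and that of Rrm2 by 1.36. For each, all 3 treated STHdhQ111 libraries again lay above the nontreated ones, and the STHdhQ7 groups overlapped. Of all 16127 genes, 3191 likewise had every Q111-T library above every Q111-C library. Overlap of the STHdhQ7 groups was the usual case, as 2330 of all genes had none. The difference for Rrm2 lost its call in 15 of 25 alternatives and that for Ccne2 in 3, while Cdkn1a lost it in 0.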

How the results depend on the processing

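None of the 18 called results of the 53 genes reversed, and 10 kept their call in every alternative run. Over 465 alternatives of these results, 419 calls were kept and 46 lost. With limma on TPM, 12 members were called in Q111-T vs. Q7-T with a pseudocount of 0.5, 12 with 0.1 and 11 with 1. In edgeR, 6 were called. With 0.5, Aurkb, Bub1, Ccnb2, Cdkn1c, Cdkn2c, Cenpe, Rrm2 and Tyms were gained, all of them higher. Ccnd2 and Cdkn2a were lost, so that Ccnd1 alone was still called lower. In the interaction, 1 was called with each pseudocount, against 3 in edgeR. The cause was not tested; on log2(TPM + 0.5) the median of all genes was 0.341 between the treated lines and 0.061 in the interaction. Over the fits that leave out 1 library, the members called ranged from 4 to 5 in Q111-C vs. Q7-C, 5 to 8 in Q111-T vs. Q7-T, 0 to 1 in Q7-T vs. Q7-C (1 without Q7-T replicate 1), 3 to 5 in Q111-T vs. Q111-C and 2 to 3 in the interaction. The replicate numbers did not pair the libraries: of 18 same-numbered pairs, 6 had deviations that correlated above 0.1, with r from -0.416 to 0.303. With the replicate number as a block, 5, 6, 0, 4 and 2 members were called in the same order, and the lost call was Rrm2 (1.38, adjusted p = 0.0783). Having 3 libraries per group limits precision, and the part of depth in this was not tested.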
